A study of Saccharomyces cerevisiae with 2 samples.

Results

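The vacuolar proton ATPase (V-ATPase) subunit genes of *Saccharomyces cerevisiae* were examined on 2-colour DNA microarrays that compared caspofungin-treated with untreated cells. The 10 genes were chosen by their ORF names, 7 of the catalytic V1 sector and 3 of the membrane V0 sector, out of 6207 ORFs in the deposited table. The V1 genes are VMA1 (YDL185W), VMA2 (YBR127C), VMA4 (YOR332W), VMA5 (YKL080W), VMA8 (YEL051W), VMA10 (YHR039C-A) and VMA13 (YPR036W). The V0 genes are VMA6 (YLR447C), VPH1 (YOR270C) and STV1 (YMR054W). On each array both RNAs came from a wsc1 mutant of the laboratory strain BY4741, and the kind of mutation is not given in the labels. WSC1 encodes a plasma membrane sensor of cell wall stress, and caspofungin inhibits the synthase of the wall polymer β-1,3-glucan. A culture at 24 °C was split into an untreated part and a part with caspofungin at 15 ng/ml, and cells were harvested after 2 h. The untreated RNA carried Cy5 in replicate 1 and Cy3 in replicate 2, so the dyes were exchanged between the 2 deposited columns.

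The V-ATPase is a rotary pump that uses ATP to move protons into the vacuole, the Golgi and endosomes. V1 sits on the cytosolic side, where subunits A and B hydrolyse ATP and turn a central stalk, and V0 lies in the membrane, where the turning ring of proteolipid subunits carries the protons. V1 can detach from V0 and be put back, which is a known way of setting the pump's activity in yeast. The acidity it makes drives the uptake of calcium, metals and amino acids into the vacuole and the work of vacuolar proteases. Yeast cells that lack the pump live but grow poorly at neutral pH and in high calcium.

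Each value is a log2 ratio of the 2 dyes, and the sources used here do not say whether it is Cy5 over Cy3 or the reverse. As deposited, replicates 1 and 2 were inversely related over the 3117 ORFs measured on both arrays (Pearson's r = -0.29, Spearman's rho = -0.33). The sign of replicate 1 was turned so that the caspofungin RNA stands in the same place in both. An average without the turning mixes the 2 places, so it is given for description and is no estimate of the drug's ratio. A positive turned value stands for higher RNA under the drug where Cy5 is the numerator, and for lower RNA where Cy3 is, so ratios are described as lying on a positive or a negative side. The labels do not say whether the 2 columns come from separate cultures, so SDs and p-values cover the variation between these 2 columns alone, and that may be purely technical. The mutated gene WSC1 had 0 values in the 2 columns, and ratios within 1 strain cannot check the genotype or the cell type. Of all ORFs, 50.2% had a value in both columns.

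Of the 10 genes, 8 had a ratio in both replicates. STV1 had a ratio in replicate 1 only. VMA10 has no row under the ORF name YHR039C-A or its synonym, so it has no value here. A row spelled YHR039BC is present, but no source used here pairs it with VMA10. That row had -0.24 in replicate 1 and -0.59 in replicate 2 after turning, a mean of -0.42 ± 0.24 (SD, n = 2, limma adjusted p = 0.368), and it is not counted among the members.

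The V-ATPase genes lay on both sides of 0, with small ratios. Of the 8 measured genes 6 had a negative mean and 2 a positive one, where 47.9% of all tested ORFs were negative. Of the 8, VMA2, VMA4, VMA6 and VMA8 were negative in both replicates, as were 32.4% of all ORFs, and VMA5 was positive in both. The means ran from -0.31 for VMA8, a size of 1.24-fold, to 0.23 for VMA5, a size of 1.17-fold. Their median was -0.15, against 0.010 for all 3117 ORFs tested. It was -0.12 in replicate 1 and -0.16 in replicate 2, so the median was on the negative side in each. The columns themselves were offset, with a median over all 3117 ORFs of 0.035 in replicate 1 and -0.042 in replicate 2. None of the 8 genes passed the test. Limma's moderated test with Benjamini-Hochberg adjustment over the 3117 ORFs called 0 of the 8 at an adjusted p of 0.05, and it called 0% of all ORFs. At an unadjusted p of 0.05 it gave 0 of the 8, against 13.4% of all ORFs, and the plain statistic without moderation gave VMA4 and VMA5, 2 of the 8, against 8.47%. The same sign in both replicates was seen in 5 of the 8 genes (62.5%), against 64.1% of all ORFs. A mean beyond 1.5-fold was seen in 0 of the 8 and in 131 of the 3117 ORFs. Beyond 1.5-fold with 1 sign in both columns lay 4.04% of ORFs, and beyond 2-fold 0.962%. After centring of both columns on their medians, limma called 0 of the 8 genes and 3.69% of all ORFs, and with columns also scaled to 1 spread it called 0 of the 8 and 3.3% of all ORFs.

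**Figure D1:**
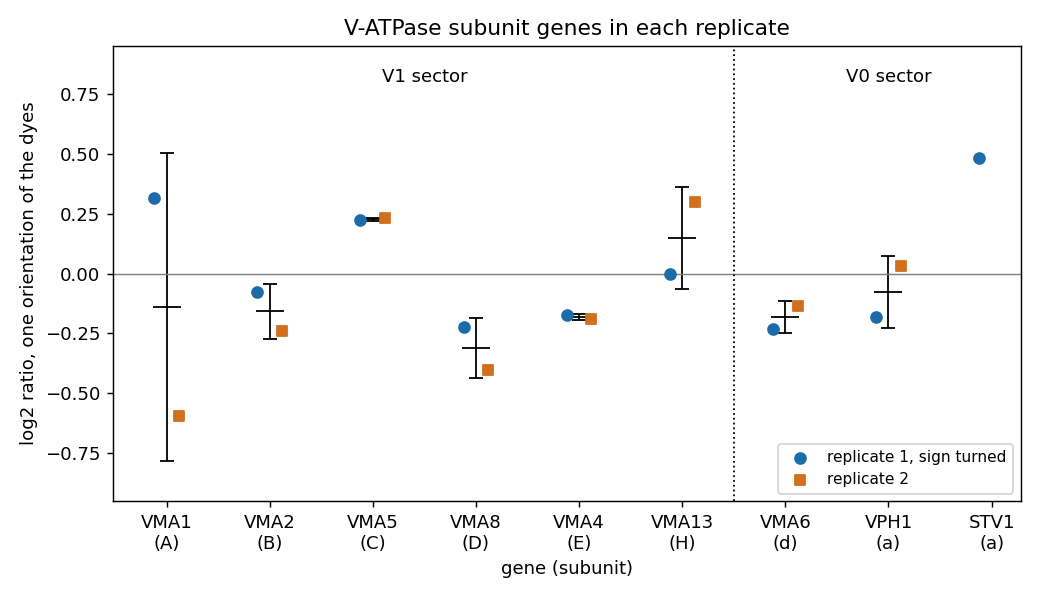
Turned log2 ratios (vertical axis) of the 9 V-ATPase member genes on the array (horizontal axis, subunit letter in brackets), with circles for replicate 1, squares for replicate 2, and the mean ± SD in black. VMA5, VMA8, VMA4, VMA2 and VMA6 keep 1 side in both replicates, VMA1 spans 0.32 to -0.59, and STV1 has replicate 1 alone, at 0.48.

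The catalytic core of V1 is a ring of A and B subunits. VMA1 encodes subunit A, which holds the ATP-hydrolysing sites, and its precursor also carries a self-splicing homing endonuclease. VMA1 had 0.32 in replicate 1 and -0.59 in replicate 2, a mean of -0.14 ± 0.64 (SD, n = 2). The replicates stood on opposite sides, and their gap of 0.908 was wider than that of 95.1% of ORFs. The limma 95% confidence interval ran from -0.88 to 0.61 (adjusted p = 0.825). VMA2 encodes subunit B, the partner of A in the ring. Its values were -0.076 and -0.24, both negative, with a mean of -0.16 ± 0.12 (interval -0.47 to 0.16, adjusted p = 0.539).

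The central stalk turns inside the ring, and its subunit D is encoded by VMA8. VMA8 had -0.22 in replicate 1 and -0.40 in replicate 2. Its mean of -0.31 ± 0.13 was the lowest of the 8 measured genes. Its interval, -0.63 to 0.0087, reached just past 0 (adjusted p = 0.377, unadjusted p = 0.0539). The 3 ORFs nearest to VMA8 over these 2 values were YGL052W, YKL063C and TMA16, and 67 of the other 3116 ORFs lay within a distance of 0.1 on the log2 scale, so 2 values single out no close pattern.

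The peripheral stalks hold the ring still. VMA4 encodes subunit E, a stalk subunit. It had -0.17 and -0.19, with a mean of -0.18 ± 0.012 (interval -0.47 to 0.11, adjusted p = 0.459). VMA5 encodes subunit C, which joins stalks to V0 and leaves the complex when V1 detaches. It was on the opposite side, with 0.22 and 0.23 and a mean of 0.23 ± 0.0059 (interval -0.066 to 0.52, adjusted p = 0.400). The replicates of VMA4 and of VMA5 lay closer together than those of nearly all other ORFs, since only 5.33% and 2.92% of ORFs had a narrower gap. VMA13 encodes subunit H, which activates the assembled pump and silences free V1. VMA13 had -0.0020 and 0.30, so its mean of 0.15 ± 0.21 rested on replicate 2 (interval -0.22 to 0.52, adjusted p = 0.612).

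In V0, VMA6 encodes subunit d, which couples the central stalk to the proteolipid ring. VMA6 had -0.23 in replicate 1 and -0.13 in replicate 2, with a mean of -0.18 ± 0.068 (interval -0.48 to 0.12, adjusted p = 0.470). VPH1 and STV1 encode alternative forms of subunit a, through which the protons pass. VPH1 directs the pump to the vacuole and STV1 to the Golgi and endosomes. VPH1 had -0.18 and 0.030, on opposite sides of 0, with a mean of -0.076 ± 0.15 (interval -0.41 to 0.26, adjusted p = 0.780). STV1 had 0.48 in replicate 1, at percentile 90.7 of the 3705 ORFs with a value there, and was blank in replicate 2. In replicate 1 STV1 thus stood 0.66 above VPH1 on the log2 scale, a difference with no replicate check.

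Set in order of their means, the genes ran VMA8, VMA6, VMA4, VMA2, VMA1, VPH1, VMA13 and VMA5. In all 7 neighbouring pairs of that order the replicate values overlapped. The ends of the order did not overlap: VMA5 stood above VMA8 by 0.44 in replicate 1 and 0.63 in replicate 2, a mean of 0.54 ± 0.13. This pair was picked for its difference, so it was not tested.

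V1 and V0 were compared by the mean of their genes within each replicate, over 6 V1 genes and 2 V0 genes with both values. In replicate 1 the V1 genes had a mean of 0.010 and the V0 genes -0.21. In replicate 2 V1 had -0.15 and V0 -0.052. V1 was the higher sector in replicate 1, by 0.22, and the lower in replicate 2, where the difference was -0.098. The difference of V1 minus V0 was therefore 0.059 ± 0.22 (SD, n = 2), smaller than its spread (exact permutation test over the replicates, two-sided, p = 1, with 0.5 the smallest p that 2 replicates allow). Counting STV1 with V0 in replicate 1, a choice made after its value was seen, turned the difference there to -0.013 and the mean to -0.055. With the other measured subunits added, 7 genes of V1 and 6 of V0, the mean difference was -0.13 ± 0.21. The 6 of V0 include VOA1, a V0-associated protein.

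**Figure D2:**
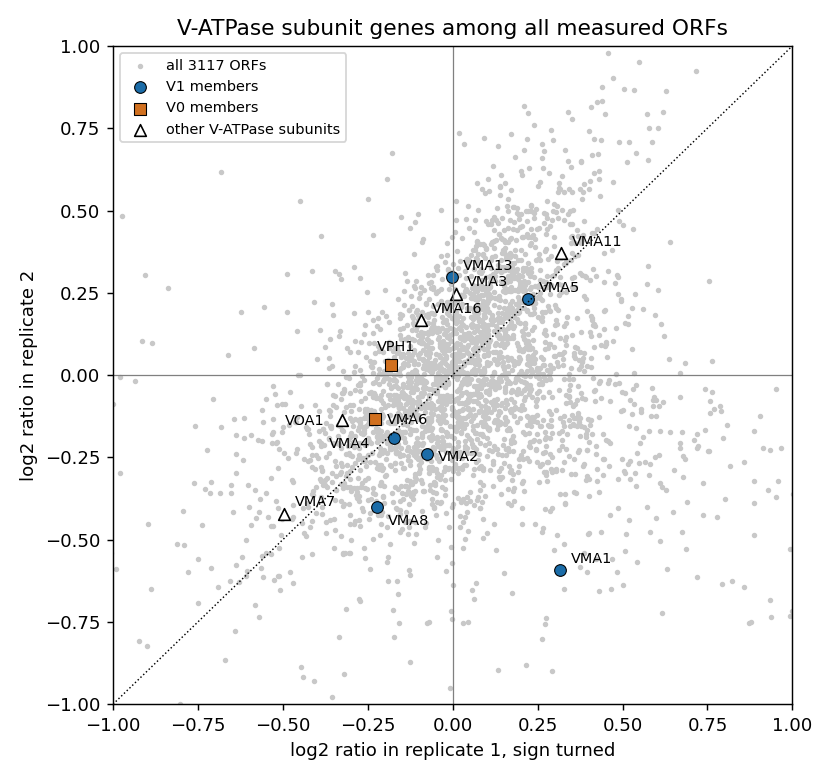
Each point is 1 of 3117 ORFs, with its turned log2 ratio in replicate 1 (horizontal) and its ratio in replicate 2 (vertical). Both axes end at 1 and -1, which leaves out 108 ORFs, and the dotted line marks equal values. V1 genes (circles), V0 genes (squares) and the other subunits (triangles, VOA1 included) are spread through the cloud. VMA7 and VMA8 lie at its lower left, VMA11 and VMA5 at its upper right, and VMA1 is the only V-ATPase gene drawn at the lower right.

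The remaining V-ATPase subunits had a wider range than the members. Of 6 listed, 5 had both values, VMA9 has no row under its ORF name, 3 means were positive and 2 negative, and the median was 0.037. That median was -0.093 in replicate 1 and 0.17 in replicate 2, so its side rests on replicate 2. VMA7, which encodes the stalk subunit F of V1, had -0.50 and -0.42, with a mean of -0.46 ± 0.054 (adjusted p = 0.366). VMA11, a proteolipid of the V0 ring, had 0.32 and 0.37, with a mean of 0.34 ± 0.038 (adjusted p = 0.366). Both had an unadjusted limma p under 0.05, 0.0138 for VMA7 and 0.032 for VMA11, as had 13.4% of all ORFs, and neither passed after adjustment over all ORFs. The main ring proteolipid VMA3 had 0.0085 and 0.25. VMA16, its larger relative in the ring, had -0.093 and 0.17 and was named after its values were seen. VOA1, a V0-associated protein that helps assembly, had -0.33 and -0.14. Over all 13 subunit genes with both values, VOA1 among them, 8 means were negative and 5 positive, with a median of -0.14.

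Assembly factors of V0 in the endoplasmic reticulum also lay on both sides. VMA21, which escorts V0 out of that compartment, had -0.14 and -0.45, and VMA22 had 0.12 and -0.45. PKR1, another V0 assembly factor, had 0.17 and 0.33. VMA12 had a value in replicate 1 only. RAV1 and RAV2 encode the RAVE proteins, which put detached V1 back onto V0. RAV1 had 0.15 and 0.38, with a mean of 0.26 ± 0.16, and RAV2 had 0.15 and 0.48, with a mean of 0.31 ± 0.23 (adjusted p = 0.400 and 0.398). Both genes were positive in both replicates, as were 31.6% of all ORFs. In the same list SKP1 and OXR1 were blank in both columns and RTC5 in replicate 2. None of these measured assembly and RAVE genes passed the test.

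**Figure D3:**
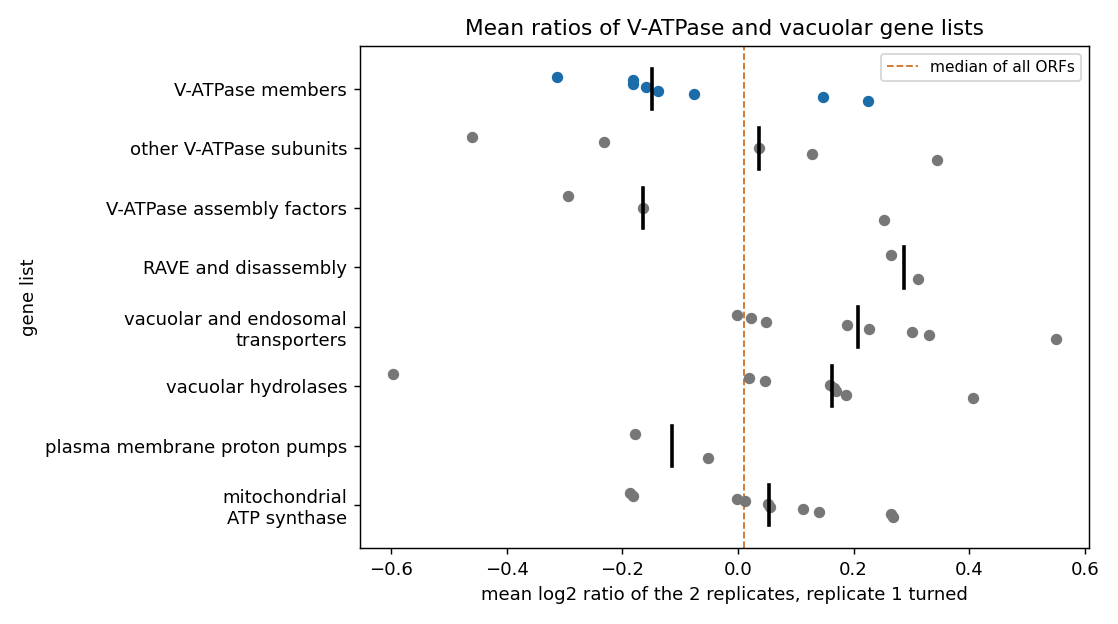
Mean turned log2 ratio of the 2 replicates (horizontal) for each gene measured in both, by gene list (vertical); the black bar is the list's median and the dashed line the median of all ORFs, 0.010. The V-ATPase members have 6 of 8 means on the negative side, 4 of them negative in both replicates. The transporter list has 7 of 8 means on the positive side, 5 of them positive in both replicates.

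Genes whose products depend on the pump or share its organelle were described in the same way. Of 15 vacuolar and endosomal transporters 8 had both values, 7 of them with a positive mean, where 52.1% of all tested ORFs were positive. Only 5 of the 8 were positive in both replicates, as were 31.6% of all ORFs. The same sign in both was seen in 62.5% of the 8, against 64.1% of all ORFs. The median was 0.21, and 0.030 without the turning. YPQ1, a vacuolar transporter of basic amino acids, had 0.43 and 0.67, a mean of 0.55 ± 0.17 at percentile 98.9 of all ORFs. VCX1, the calcium/proton exchanger of the vacuole, had a mean of 0.33 ± 0.13. YHC3, the relative of the human Batten disease protein, had a mean of 0.30 ± 0.0030, and NHX1, the endosomal sodium/proton exchanger, had 0.23 ± 0.015. None of the 8 passed (lowest limma adjusted p = 0.366, which is also the lowest over all ORFs). Of 9 vacuolar hydrolases 8 had both values, 7 of them with a positive mean and 4 positive in both replicates. The median was 0.16, with 0.22 in replicate 1 and 0.036 in replicate 2, and it changed sign to -0.064 without the turning. ATH1, the acid trehalase, was the exception, with -0.74 and -0.46 and a mean of -0.60 ± 0.20 (adjusted p = 0.366). The carboxypeptidase gene CPS1 had 1.26 and -0.45, on opposite sides. The protease genes PRB1 and APE3 had means of 0.19 ± 0.12 and 0.17 ± 0.05. No hydrolase passed the test with uncentred columns, nor did any other ORF. With centred columns ATH1 alone of the 8 passed (limma adjusted p = 0.0465), as did 3.69% of all ORFs. With columns also scaled to 1 spread, no hydrolase passed, against 3.3% of all ORFs.

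Other proton-moving ATPases were set beside the V-ATPase. PMA1, the main proton pump of the plasma membrane, had 0.19 and -0.30, and its weakly expressed relative PMA2 had -0.22 and -0.13. The mitochondrial ATP synthase, a related rotary enzyme, had 10 of 13 listed genes measured in both replicates. Of these, 7 means were positive and 3 negative, where 52.1% of all tested ORFs were positive. Their median was 0.054 (0.036 in replicate 1 and 0.092 in replicate 2). The medians of all ORFs in these columns were 0.035 and -0.042. The synthase's stalk genes ATP15 and ATP16 had means of 0.27 ± 0.058 and 0.26 ± 0.051. The catalytic subunit gene ATP2 had -0.18 ± 0.10, and ATP20 had -0.19 ± 0.035. The mean of the 8 V-ATPase genes minus that of the 10 ATP synthase genes was -0.063 in replicate 1 and -0.21 in replicate 2, or -0.14 ± 0.11. With replicate 1 turned the difference was negative in both replicates, and the exact permutation p was 0.5 (two-sided), the smallest that 2 replicates allow. Without the turning the difference was 0.063 in replicate 1 and -0.21 in replicate 2. Turning reverses the sign of any difference within its column, so this is no check of the difference.

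**Figure D4:**
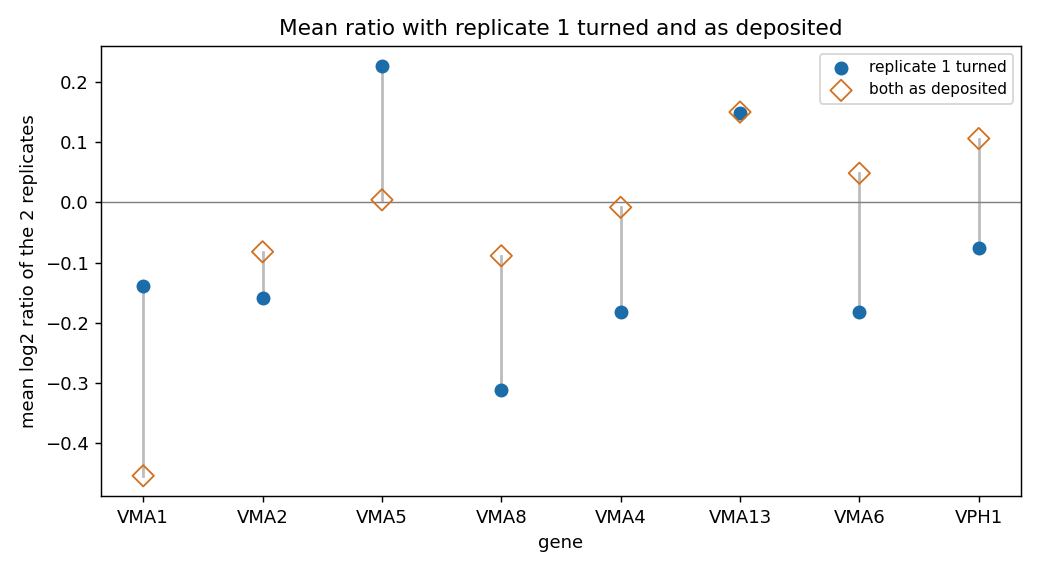
Mean log2 ratio of the 2 replicates (vertical) for the 8 V-ATPase genes measured in both (horizontal), with replicate 1 turned (filled circles) and with both columns as deposited (open diamonds). VMA1 lies farthest from 0 as deposited, at -0.45, VMA5 and VMA4 lie near 0 there, and the 2 marks of VMA13 coincide.

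The turning, which the exchanged dyes require, decides part of these values. When both columns were averaged as deposited, without turning, 4 of the 8 genes were negative and 4 positive. VMA6 changed from -0.18 to 0.048 and VPH1 from -0.076 to 0.11. VMA1 had the same sign in both deposited columns, -0.32 and -0.59, and its mean as deposited was -0.45, a size above that of 95.1% of ORFs. VMA4 and VMA5, with -0.0083 and 0.0042, had nearly opposite deposited values in the 2 columns.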

How the data were processed

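Arrays hybridised with the dye-labelled RNA of caspofungin-treated and untreated cells gave the 2 columns of 1 deposited table. Its log2 values, as the authors deposited them, hold 1 dye ratio per ORF. The scale was checked on the values: 2 raised to each value had at most 4 decimals for 100% of them. Not given in the sources used here are the ratio's direction and how the authors corrected background, normalized, centred or left ORFs blank. Spot intensities were not used, which leaves signal over background unknown. Precision is limited by the number of arrays. The 2 control entries were left out. Of the ORF names, 5654 of 6207 matched the RefSeq gene table (R64).

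Replicate 1 was multiplied by -1. The 3117 ORFs with both values were fitted in limma 3.58.1 (R 4.3.3). The test was of the mean against 0 (intercept, eBayes, two-sided, Benjamini-Hochberg over all ORFs). A check on simulated data came first. It required only that estimated means follow the true ones, and the power of 2 arrays is not given here. Each ratio is itself paired. Lists are described by counts and medians. The members and lists were chosen with earlier results of these data known. Besides the members, up to 4 genes per list with the largest mean ratio in size are named. Alternatives were both columns as deposited, centring, scaling, other priors and tests, 1 column sufficing, a 1.5-fold threshold and leaving out a replicate.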

Additional observations from a re-analysis of the deposited data

How the results depend on the processing

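Of the V-ATPase genes, 0 of 8 were called with replicate 1 turned, and 0 also with both columns as deposited. The columns as deposited hold the caspofungin RNA in opposite places of the ratio, so their average is not another estimate of the drug's ratio. The count was also 0 with centred or scaled columns, the robust prior, the plain statistic and a minimum fold of 1.2. With 1 column sufficing, where STV1 entered on replicate 1 alone, 0 of 9 were called. Over all ORFs the count called went from 0 to 115 with centred and 103 with scaled columns. In each of the other settings it stayed at 0 over all ORFs. The 0 for the V-ATPase genes in those settings is therefore not particular to them. Limma's prior degrees of freedom went from 2.64 to 17.1 with centring. ATH1 was among the 115 (limma adjusted p = 0.0465) and not among the 103. ORFs beyond 2-fold with 1 sign went from 30 to 10 with both columns as deposited. With replicate 1 turned they numbered 126 at 1.5-fold. In single replicates 27 and 87 ORFs lay beyond 2-fold, counts to which the condition on sign does not apply. The median of the V-ATPase genes went from -0.15 to -0.0021 with both columns as deposited. It ran from -0.16 to -0.12 when a replicate was left out. V1 minus V0 was 0.059 in the main setting and -0.16 with both columns as deposited. The difference was -0.13 with all measured subunits, VOA1 included, and 0.0016 with medians over subunits. It was -0.055 with STV1 in replicate 1 and 0.0095 with the row YHR039BC in V1, both added after the values were seen. Without 1 replicate it ran from -0.098 to 0.22. With both columns as deposited VMA6 (0.048), VPH1 (0.11) and the hydrolase median (-0.064) changed sign. Without 1 replicate VMA1 ran from -0.59 to 0.32, VMA13 from -0.0020 to 0.30 and VPH1 from -0.18 to 0.030, so their side rests on 1 replicate. The cause was not tested. No promoter motif was searched. No further pairing was applied because treated and untreated RNA are already paired within every ratio.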
